A study of Homo sapiens with 8 samples.

Results

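Small nucleolar RNA (snoRNA) host RNAs were followed through selective ribosome profiling of the chaperonin TRiC and its partner prefoldin (PFD). The set comprised 10 spliced RNAs without a long open reading frame, chosen with earlier results of these data known: SNHG1, SNHG5, SNHG6, SNHG8, SNHG12, SNHG15, SNHG16, SNHG29, GAS5 and ZFAS1. All 10 were found by symbol among the 60664 gene identifiers of the count tables. Ribosome-protected fragments (RPFs) were taken from U-2 OS, a cell line of human osteosarcoma. One monoclonal knock-in line carried a HaloTag in the TRiC subunit CCT4 (genotype CCT4-Halo) and the other carried it at the C terminus of the PFD subunit PFD4 (genotype PFDN4-Halo). All cells received cycloheximide at 100 µg/ml for 1 min, which stalls ribosomes, and the crosslinker DSP at 2 mM for 30 min, before digestion with RNase I at 500 U per mg. RPFs of all ribosomes pelleted through 25% sucrose formed the input, and those recovered with anti-HaloTag beads formed the pulldown. The 4 groups were thus input and pulldown of either line, with 2 biological replicates each, and no untagged control was analysed here.

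A snoRNA host gene carries snoRNAs in its introns. After splicing, the introns are trimmed to snoRNAs, which guide the chemical modification of ribosomal RNA, while the joined exons leave the nucleus. Several such exonic RNAs, GAS5 among them, are known to be engaged by ribosomes and to be degraded by nonsense-mediated decay, and many of their genes share a pyrimidine-rich transcription start with genes of the translation machinery. How far these RNAs appear among ribosomes carrying a chaperone was the question asked of the counts.

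The starts of 5 canonical transcripts are shown because this feature was not used to choose the set. Each line gives the first 30 bases, from GENCODE release 44 on hg38, with the longest run of C and T in capitals.
GAS5: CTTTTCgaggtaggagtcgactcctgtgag
SNHG29: CTTTTCattcccgttgttatggagggccac
ZFAS1: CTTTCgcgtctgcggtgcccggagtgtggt
SNHG1: ggcatggtatttaatcgTCTCCCCggggag
SNHG5: gctgcgcacttcggTCTTTTacgtcggcct
GAS5, SNHG29 and ZFAS1 began with C followed by at least 4 further pyrimidines, a start that 4 of the 10 host RNAs (40.0%) had. It was found in 2.66% of the canonical transcripts of all 60463 annotated genes, in 2.47% of 16780 lncRNA genes and in 21 of 31 protein-coding snoRNA hosts (67.7%). None of the 22 other noncoding snoRNA hosts examined had it. SNHG1 and SNHG5 had their pyrimidine runs inside the window and not at the first base in this annotation. Runs of 6 or more anywhere in the first 30 bases, as in these 2, are common. They were found in 24.6% of all genes, 28.2% of lncRNA genes and 6 of the 10 host RNAs.

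The reading frames of the set were short by choice, since RNAs without a long open reading frame were picked. The longest ATG-to-stop frame ranged from 45 codons in SNHG6 to 98 codons in SNHG15, with a median of 63, beside medians of 60 for lncRNA genes and 425 for protein-coding genes. The counts hold no positions and cannot place a fragment inside or outside a frame.

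Library totals ranged from 9523128 to 32637658 counts. Values below are CPM, the counts of a gene scaled to a library of 1000000 counts, and 3 counts correspond to between 0.0919 and 0.315 CPM. Mesenchymal marker genes were present, with 10 of 12 at 100 counts or more in every library and a summed level of 11321 to 25964 CPM, and only TWIST1 was at 0 in some libraries. Summed epithelial markers lay between 199 and 452 CPM, with 4 or 5 of 8 at 100 counts or more in each library. Summed blood markers lay between 0 and 0.842 CPM. The PFD inputs stood apart in how overlapping genes were counted. A group of 17 protein-coding genes whose exons lie wholly under exons of the opposite strand had 0 counts in all 4 TRiC libraries and both PFD pulldowns, but summed to 59.8 and 54.7 CPM in PFD input replicates 1 and 2. The part of this difference in the PFD results was not tested. Exons of the opposite strand cover none of SNHG1, SNHG5 and SNHG15, 0.188% of SNHG12, 5.59% of SNHG29 and 7.75% of GAS5. They cover 28.5% of SNHG16, 36.4% of ZFAS1, 37.6% of SNHG8 and 58.9% of SNHG6.

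The host RNAs took up a small and uneven share of RPFs. Together the 10 members held 75.3 and 64.4 CPM in the TRiC inputs, 119 and 108 CPM in the TRiC pulldowns, 327 and 192 CPM in the PFD inputs, and 137 and 139 CPM in the PFD pulldowns (replicates 1 and 2 throughout). Both TRiC pulldowns were above both TRiC inputs, and both PFD pulldowns were below both PFD inputs. With 2 libraries against 2 the exact permutation test (two-sided) cannot go below p = 0.333, which was its value in both lines. GAS5 and SNHG1 alone supplied between 87.1% and 89.6% of the sum in every library.

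**Figure D1:**
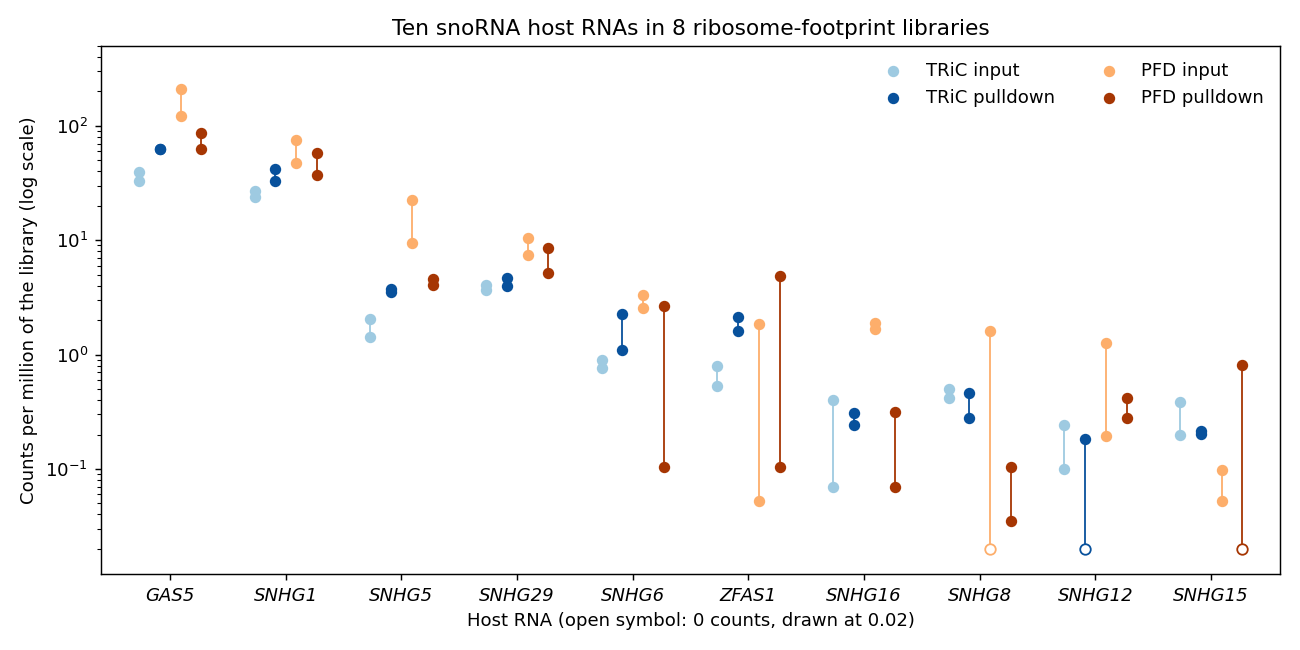
CPM (log axis) for each host RNA in the 8 libraries, with 2 points per group joined by a line and open symbols for 0 counts. GAS5 and SNHG1 stand above the other host RNAs in every library, and the points of the scarce RNAs spread widely.

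Levels were compared between genes per kilobase of merged exons. In the TRiC inputs GAS5 (ENSG00000234741, chromosome 1, 173858559 to 173868882 on hg38, minus strand) was at 7.31 ± 0.911 CPM per kilobase (SD, n = 2). SNHG1 (ENSG00000255717, chromosome 11, 62851978 to 62855953, minus strand) was at 6.43 ± 0.570 CPM per kilobase (SD, n = 2), and the replicates of these neighbours overlapped. GAS5 exceeded 71.9% and SNHG1 69.4% of the 17394 protein-coding genes with a count, whose median was 2.31 CPM per kilobase. The other host RNAs followed well below, from SNHG29 at 0.434 ± 0.0336 and SNHG6 at 0.329 ± 0.0397 through SNHG5 at 0.138 ± 0.0351 to SNHG12 at 0.0401 ± 0.0238 CPM per kilobase (SD, n = 2). ZFAS1, SNHG15, SNHG8 and SNHG16 lay between SNHG5 and SNHG12, at 0.0799, 0.0736, 0.0690 and 0.0404 CPM per kilobase. Most of these RNAs have several annotated isoforms. The length chosen changed the order and the standing among protein-coding genes, as given among the results on processing.

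TRiC pulldown RPFs held larger shares of GAS5 and SNHG1 than the TRiC input did. GAS5 had 39.2 and 32.9 CPM in the TRiC inputs and 63.4 and 62.4 CPM in the TRiC pulldowns, from 993 to 2069 counts per library. Both pulldowns lay above both inputs, by 0.75 ± 0.11 SE on the log2 scale (edgeR, adjusted p = 0.000209). SNHG1, which hosts a run of C/D box snoRNAs, had 27.2 and 24.0 CPM in the TRiC inputs and 42.4 and 33.0 CPM in the pulldowns, again without overlap. It rose by 0.51 ± 0.13 SE on the log2 scale (edgeR, adjusted p = 0.0110). The 2 calls higher and 0 lower among 7 tested members stand beside 8.64% higher and 10.6% lower among all 17934 genes tested. The call of SNHG1 was lost without TRiC input replicate 2 (0.39, adjusted p = 0.157 from edgeR) and without TRiC pulldown replicate 1 (0.32, adjusted p = 0.0662 from edgeR). Both calls were lost when all 8 libraries shared one estimate of the spread, where edgeR gave them adjusted p-values of 0.438 and 0.845.

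SNHG5, ZFAS1 and SNHG6, with fewer counts, lay above their inputs in both TRiC pulldowns without passing the test. How many of all genes separated from their inputs in this way was not counted in either line. The lack of overlap alone therefore does not set any member apart. SNHG5 (ENSG00000203875, chromosome 6, 85650491 to 85678932), the host of SNORD50A and SNORD50B, had 2.05 and 1.42 CPM in the inputs and 3.77 and 3.53 CPM in the pulldowns. The log2 fold change came to 1.02 ± 0.36 SE (edgeR, adjusted p = 0.0573), and it passed the threshold with library totals in place of TMM (adjusted p = 0.0429 from edgeR) and with the replicate number as a block (adjusted p = 0.0378 from edgeR). SNHG5 passed in only 3 of the 13 alternatives run for it. ZFAS1 (ENSG00000177410, chromosome 20, 49278178 to 49299600), which carries the SNORD12 family, had 0.799 and 0.529 CPM in the inputs against 2.11 and 1.60 CPM in the pulldowns. The log2 fold change, 1.43 ± 0.56 SE (edgeR, adjusted p = 0.0817), passed when at least 10 counts were required in every library (adjusted p = 0.0294 from edgeR). ZFAS1 passed in only 1 of its 12 alternatives. For SNHG6 (ENSG00000245910, chromosome 8, 66920561 to 66926398), the host of SNORD87, the values were 0.903 and 0.761 CPM in the inputs and 1.10 and 2.24 CPM in the pulldowns, or 0.95 ± 0.58 SE on the log2 scale (edgeR, adjusted p = 0.270).

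The remaining members did not separate the TRiC groups. SNHG29 (ENSG00000175061, chromosome 17, 16438767 to 16480249), the host of SNORD49A, SNORD49B and SNORD65, had 4.10 and 3.67 CPM in the inputs and 4.72 and 4.01 CPM in the pulldowns. The log2 fold change came to 0.12 ± 0.28 SE (edgeR, adjusted p = 0.812), and the groups overlapped. SNHG8 (ENSG00000269893, chromosome 4, 118278703 to 118285316), which contains SNORA24, had 0.417 and 0.496 CPM in the inputs and 0.460 and 0.281 CPM in the pulldowns, or −0.34 ± 0.89 SE on the log2 scale (edgeR, adjusted p = 0.840). SNHG12, SNHG15 and SNHG16 did not pass the filter on low counts, with between 0 and 12 counts per TRiC library. SNHG12 (ENSG00000197989, chromosome 1, 28578538 to 28583132) had 0 counts in TRiC pulldown replicate 2, which allows up to 0.120 CPM. SNHG15 (ENSG00000232956, chromosome 7, 44983019 to 44986961) had 5 to 11 counts. SNHG16 (ENSG00000163597, chromosome 17, 76557727 to 76670985) had 2 to 12.

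**Figure D2:**
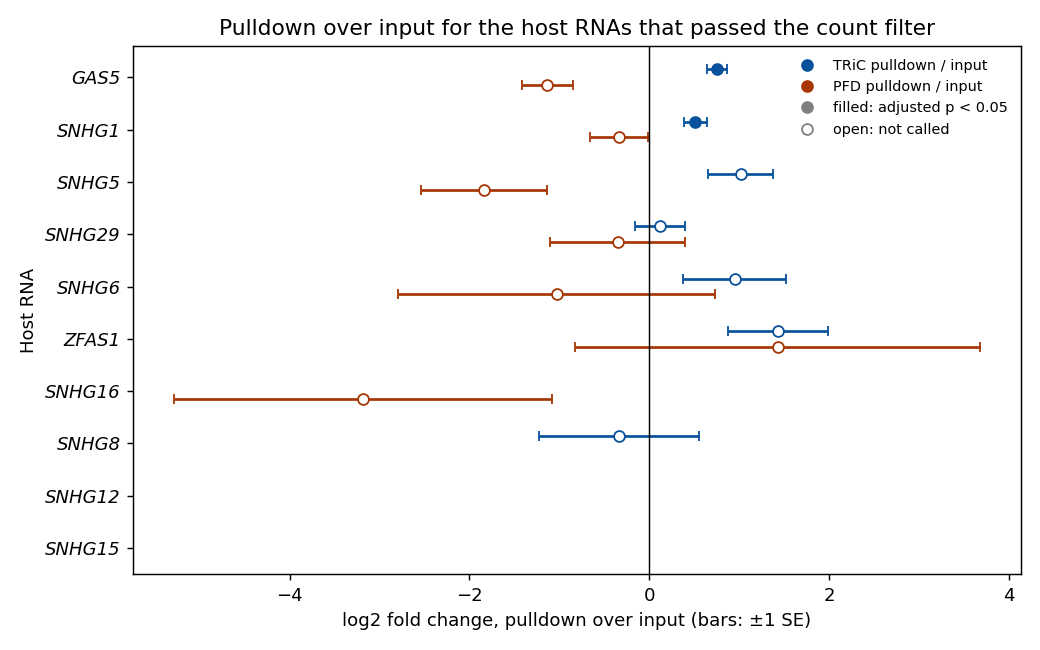
Log2 fold changes of pulldown over input (horizontal axis, ±1 standard error) for the host RNAs that passed the count filter in the TRiC or the PFD libraries, with filled symbols for adjusted p under 0.05. Only GAS5 and SNHG1 in the TRiC pulldown are filled, and the PFD bars are wider for each RNA tested in both.

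In the PFD libraries no host RNA passed the test, and most values lay below 0. GAS5 held 211 and 121 CPM in its inputs against 85.8 and 62.6 CPM in its pulldowns. Both pulldowns lay below both inputs, with −1.13 ± 0.29 SE on the log2 scale (edgeR quasi-likelihood test, adjusted p = 0.497). SNHG5 had 22.3 and 9.36 CPM in the inputs against 4.62 and 4.06 CPM in the pulldowns, or −1.84 ± 0.70 SE on the log2 scale (edgeR, adjusted p = 0.706), again without overlap. SNHG16 lay in the same order, with 1.88 and 1.66 CPM in the inputs and 0.315 and 0.0700 CPM in the pulldowns, but these are 36, 17, 3 and 2 counts, and the change, −3.19 ± 2.11 SE on the log2 scale, was not called (edgeR, adjusted p = 0.867). SNHG1 had 75.4 and 47.5 CPM in the inputs and 36.9 and 58.3 CPM in the pulldowns, which overlap. The log2 fold change came to −0.34 ± 0.32 SE (edgeR, adjusted p = 0.932).

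ZFAS1 and SNHG6 differed widely between the PFD pulldown replicates. ZFAS1 had 1 and 19 counts in the inputs against 1 and 139 in the pulldowns. SNHG6 had 63 and 26 against 1 and 76 counts. SNHG29 had 10.6 and 7.41 CPM in the inputs against 8.61 and 5.14 CPM in the pulldowns, and the groups overlapped. The log2 fold changes of ZFAS1, SNHG6 and SNHG29 were 1.43, −1.03 and −0.35, with standard errors of 2.25, 1.77 and 0.75. SNHG8, SNHG12 and SNHG15 did not pass the filter. SNHG8 had 0 counts in PFD input replicate 2, which allows up to 0.293 CPM, against 31 in the other input, and SNHG15 had 0 counts in PFD pulldown replicate 1 against 23 in the other. Over the 2 pulldowns, log2 CPM of genes correlated at 0.888 (Pearson, across genes, which are not independent), beside 0.993, 0.990 and 0.965 for the other groups.

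Members called in the PFD comparison numbered 0 of 7 tested, beside 0.0496% higher and 0.191% lower among 14111 genes. The 7 members had a median log2 fold change of −1.03, with 1 above 0, beside 0.39 for 196 lncRNA and 0.11 for 92 snoRNA and scaRNA genes. Medians below 0 were also found for 7 tested spliced noncoding RNAs without snoRNAs (−0.44, 3 above 0) and for 2 tested nuclear RNAs (−1.29). For 10 tested noncoding snoRNA hosts outside the set the median was 0.23, with 7 above 0. Of all genes, 978 had an unadjusted p under 0.05 in edgeR. GAS5 was called lower by DESeq2 (−1.12, adjusted p = 0.00368), without the filter on low counts (−1.14, adjusted p = 1.13e-06 from edgeR) and with the replicate number as a block (−1.09, adjusted p = 0.000152 from edgeR). It was also called when PFD input replicate 2, PFD pulldown replicate 1 or PFD pulldown replicate 2 was left out, but not without PFD input replicate 1 (−0.68). SNHG5 was called lower without PFD pulldown replicate 1 (−1.96, adjusted p = 0.0276 from edgeR) and without PFD pulldown replicate 2 (−1.74, adjusted p = 0.0344 from edgeR). Calls over all genes were also more numerous under these settings. Against 7 higher and 27 lower, they came to 256 and 295 by DESeq2, 59 and 93 without the filter and 44 and 90 with the block. Without PFD pulldown replicate 1 they came to 116 and 279 of 16858 genes, and without PFD pulldown replicate 2 to 1081 and 1353 of 15452. For SNHG1 and SNHG5, which no opposite-strand exon overlaps, leaving overlapped genes out of the fit gave −0.36 and −1.86.

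The difference between the TRiC and the PFD enrichment was tested over all 8 libraries. It was positive for 8 of the 10 members, with a median of 1.38 on the log2 scale, and none passed, beside 0.0212% of 18855 genes whose enrichment was larger in TRiC and 0.0159% where it was smaller. The median was 1.15 for 12 tested spliced noncoding RNAs without snoRNAs (8 above 0) and 2.98 for 3 tested nuclear RNAs. It was 1.80 for 123 snoRNA and scaRNA genes, 0.42 for 798 lncRNA genes and −0.02 for protein-coding genes. For 14 tested noncoding snoRNA hosts outside the set it was 0.36, with 8 above 0. A positive median was thus not particular to the members, though that of the other noncoding hosts was smaller. GAS5 differed by 1.91 ± 0.38 SE (edgeR, adjusted p = 0.143). SNHG5 differed by 2.88 ± 0.87 SE (edgeR, adjusted p = 0.224) and SNHG1 by 0.85 ± 0.43 SE (edgeR, adjusted p = 0.387). DESeq2 called GAS5 (adjusted p = 0.000340) and SNHG5 (adjusted p = 0.0176), among 481 genes larger and 536 smaller of 18855. The 2 lines are separate clones, and line and preparation cannot be told apart.

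Intron-encoded snoRNAs can contribute reads of their own. RefSeq places 38 snoRNAs inside the 10 host genes. GENCODE annotates 25 snoRNA genes there, of which 22 lie over 90% under exons of their host, and 1 of these had any count, with at most 5. The 3 others lie wholly outside host exons, and all 3 were counted in every library. They are printed on hg38 with their C box (TGATGA, where found) and D box (the last CTGA) in capitals, since these boxes define the C/D class.
SNORD1B (in SNHG16, chr17:76561109-76561192, plus strand): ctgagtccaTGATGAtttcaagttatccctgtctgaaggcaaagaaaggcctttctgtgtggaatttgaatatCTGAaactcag
SNORD12C (in ZFAS1, chr20:49278940-49279028, plus strand): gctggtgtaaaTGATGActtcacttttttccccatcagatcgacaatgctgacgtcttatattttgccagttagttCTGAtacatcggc
SNORD99 (in SNHG12, chr1:28578749-28578822, minus strand): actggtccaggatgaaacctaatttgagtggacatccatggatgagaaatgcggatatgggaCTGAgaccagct
SNORD1B rose in the TRiC pulldown, from 3.47 and 1.89 CPM to 5.79 and 7.01 CPM (log2 fold change 1.20 ± 0.31 SE, edgeR adjusted p = 0.0113), and the call was lost without TRiC input replicate 2 (0.79, adjusted p = 0.137 from edgeR). SNORD99 had 1.29 and 1.26 CPM against 2.42 and 2.97 CPM (log2 fold change 1.03, adjusted p = 0.0944 from edgeR). SNORD12C had 7.43 and 2.91 CPM against 7.66 and 5.73 CPM, and the groups overlapped (log2 fold change 0.32, adjusted p = 0.544 from edgeR). In the TRiC libraries each of these snoRNAs held more counts than its host in every library. SNHG16, the host of SNORD1B, stayed at 2 to 12 counts.

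Where a snoRNA has no gene of its own, its reads would be counted to the host. All 11 RefSeq snoRNAs inside GAS5 are of this kind. They lie wholly under its merged exons and make up 801 bases, or 16.2%, of them. In SNHG1 this held for 2 of 9 snoRNAs (133 bases, 3.35%), and in SNHG5 for 1 of 2. Over the whole table, 204 snoRNA genes lie wholly under same-strand exons and 2 of these had a count, whereas 245 of 685 without such overlap did. Summed snoRNA and scaRNA genes were at 1708 and 1538 CPM in the TRiC inputs and 3639 and 3734 CPM in the TRiC pulldowns, against 1944 and 1777 CPM in the PFD inputs and 2439 and 2146 CPM in the PFD pulldowns. The part of snoRNA reads in the rise of GAS5 and SNHG1 was not tested.

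The medians of other noncoding RNA groups also lay above 0 in the TRiC pulldown, and their calls stand beside 8.64% higher and 10.6% lower among all genes. The 7 tested members had a median log2 fold change of 0.75, with 6 above 0, beside 0.57 for 641 tested lncRNA genes (49 higher, 7 lower), 1.47 for 110 snoRNA and scaRNA genes (59 higher, 1 lower) and −0.03 for protein-coding genes. Among 11 tested noncoding snoRNA hosts outside the set the median was 0.60 with 1 call higher, a share near that of all genes. That call was SNHG14 (0.61 ± 0.20 SE, edgeR adjusted p = 0.0409). Spliced noncoding RNAs without snoRNAs gave 5 calls higher and 0 lower of 12 tested, with a median of 0.86, but 1 call without TRiC input replicate 2 and 2 without TRiC input replicate 1 or TRiC pulldown replicate 2. SNHG14 was not called without TRiC input replicate 1 or TRiC pulldown replicate 1. PVT1, a host of microRNAs, rose by 0.93 and TUG1 by 0.31 on the log2 scale. The nuclear RNAs MALAT1 and NEAT1, which mark nuclear speckles and paraspeckles, rose by 1.67 and 1.54.

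Calls among protein-coding snoRNA hosts and snoRNP proteins were mostly lower, beside the 10.6% lower among all genes, and most genes of both lists were not called. Of 31 protein-coding snoRNA hosts, mostly ribosomal protein and translation factor genes, 13 were lower and 1 higher in the TRiC pulldown, with a median of −0.24. Without TRiC input replicate 1 the number lower was 8, and without TRiC input replicate 2 it was 7. The lowest was RPL17, a ribosomal protein gene (−0.57 ± 0.13 SE, edgeR adjusted p = 0.00608), and the exception was TAF1D (0.45). Among 18 snoRNP proteins, which bind and process snoRNAs, 6 were lower and 0 higher, with NHP2 lowest at −0.51 (3 were lower without TRiC input replicate 2). Among 18 nonsense-mediated decay factors, whose median of −0.03 was that of all protein-coding genes, 3 were higher and 2 lower, from SMG5 at 0.56 to MAGOH at −0.40, and the number lower was 0 without TRiC input replicate 1 and 1 without TRiC input replicate 2 or TRiC pulldown replicate 2. None of these lists had a call in the PFD pulldown, where edgeR called 7 genes higher and 27 lower in all.

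The genes most like the summed host RNAs in pattern were sought over the 8 libraries, by the root mean square difference between centred log2 CPM and that of the sum. Most of this sum came from GAS5 and SNHG1. MPP3 (0.181), MCOLN2 (0.227), GUF1 (0.270) and SERPINB7 (0.276) were among the 5 nearest of the 11263 genes that averaged 100 counts or more, whose median difference was 0.782. GAS5 itself differed from the sum by 0.168 and ZFAS1, the least alike member, by 1.35. The other members lay between 0.292 for SNHG1 and 0.916 for SNHG15, so the sum does not stand for each member.

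RPF counts hold neither fragment lengths nor positions, so reads on these RNAs are not shown to come from translating ribosomes. With no matched RNA level analysed here, more RNA and more ribosomes per RNA cannot be told apart, nor can fewer cells and less RNA per cell. TMM scaling treats most genes as unchanged, and a rise shared by all genes would not show.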

How the data were processed

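The deposited values are whole-number counts per gene, without normalization, in one table for each cell line. Per the methods, the authors trimmed and demultiplexed reads, collapsed unique molecular identifiers with umi-tools, discarded reads matching noncoding RNA with Bowtie2 2.4.2 and aligned what remained to hg38 using STAR 2.7.10a (unique alignments, at most 2 mismatches, gene counting). The annotation release and strand column are not given in the sources used here. STAR is built to leave out reads that overlap several genes, yet some genes wholly under exons of others hold counts here. Protein-coding genes under opposite-strand exons did so in the PFD inputs only. Of 847 other genes under opposite-strand exons, 37 and 35 had a count in PFD input replicates 1 and 2. In the TRiC libraries and PFD pulldowns 3 to 8 did. Under same-strand exons 2 snoRNA genes had counts. Discarding noncoding RNA reads could lower counts of such genes. All columns were used, and 60463 of 60664 identifiers were found in GENCODE release 44 (201 were not).

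Pulldown and input were compared within each line by edgeR 4.0.16 in R 4.3.3 (TMM, filterByExpr, glmQLFTest, two-sided, Benjamini-Hochberg over all genes tested, threshold 0.05, no replicate block). Standard errors are the log2 fold change over the square root of the F statistic. The difference between enrichments was an interaction over all 8 libraries. Alternatives used DESeq2 1.42.0, limma 3.58.1, other scalings and filters, all 8 libraries in one fit, a replicate block and leaving out each library. An alternative without opposite-strand overlap was added after the data were seen. Simulated data were used to test the edgeR, DESeq2 and cyclic loess methods at their main settings, but not every alternative. Counting intervals and floors (3 counts) cover counting error only. Replicates are biological per the methods.

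The members and lists were chosen with earlier results of these data known. Named were all members, up to 2 snoRNAs per host that passed the filter, the highest and lowest called gene of each further list averaging 100 counts or more, and the 5 genes nearest in pattern, of which 1 is not reported here. Sequences and positions came from GENCODE release 44, RefSeq and hg38.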

Additional observations from a re-analysis of the deposited data

Results flagged for a closer look

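GAS5 and SNHG5 lay on opposite sides of their inputs in the 2 lines, although only GAS5 in the TRiC line was called. For both RNAs, every TRiC pulldown lay above every TRiC input and every PFD pulldown below every PFD input. How many of all genes lay in this order was not counted, so the order alone does not set these RNAs apart. The TRiC enrichment exceeded the PFD enrichment by 1.91 for GAS5 and 2.88 for SNHG5 on the log2 scale. The test of that difference by edgeR gave adjusted p-values of 0.143 and 0.224, so neither passed. Over the alternatives the difference ranged from 1.42 to 2.25 for GAS5 and from 2.08 to 3.36 for SNHG5, and it passed in 4 of 15 alternatives for GAS5 and 3 of 16 for SNHG5. Leaving out PFD pulldown replicate 1 gave 2.13 for GAS5 (adjusted p = 0.0134 from edgeR) and 2.96 for SNHG5 (adjusted p = 0.0429 from edgeR), in a fit that called 649 genes larger and 596 smaller of 22162. Leaving out PFD pulldown replicate 2 gave 1.74 for GAS5 (adjusted p = 0.00881 from edgeR) and 2.83 for SNHG5 (adjusted p = 0.0248 from edgeR), in a fit that called 2489 larger and 1442 smaller of 21420. With all libraries 4 genes were larger and 3 smaller of 18855. The PFD inputs, in which these RNAs were highest, are also the only libraries with counts on protein-coding genes wholly under opposite-strand exons. SNHG5 has no such overlap and 7.75% of the exon bases of GAS5 do.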

How the results depend on the processing

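GAS5 stayed above 0 in the TRiC pulldown under all 12 alternatives run for it and kept its call in 11, and SNHG1 kept its call in 10 of 13. The count of members higher in the TRiC pulldown (2) became 4 with at least 10 counts in every library, 0 with all 8 libraries in one fit, 1 without genes overlapped on the opposite strand (2 members remained tested) and 1 to 2 without one library. Their median (0.75) was 0.54 under cyclic loess, 0.34 without the filter on low counts, 0.35 with all 8 libraries in one fit and 0.32 to 0.78 without one library. These medians are over 10 members in the unfiltered and the 8-library fits, 8 without an input and 9 without a pulldown, in place of 7. The count of members lower in the PFD pulldown (0) was 1 with DESeq2, 1 without the filter, 1 with the replicate block and 0 to 2 without one library, and the PFD median (−1.03) ranged from −1.74 to −0.68 without one library, over 7 to 10 members. For the difference between enrichments, 2 members were called larger by DESeq2, 1 without the filter and 0 to 4 without one library, where over all genes 481, 213 and 0 to 2489 were larger against 4, and the median was 0.60 under cyclic loess and 0.67 to 2.63 without one library. The causes of the other changes were not tested.

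Signs turned for scarce members. The difference for ZFAS1 (−0.07) was 0.043 with library totals, 0.16 with the replicate block and −4.08 to 4.48 without one library. That for SNHG12 (0.21) was −0.90 under cyclic loess, −0.78 with the block and −3.89 to 1.12 without one library, and that for SNHG8 was −4.01 to 4.27. Without one library SNHG29 ranged from −0.0046 to 0.23 for TRiC. For PFD, SNHG1 ranged from −0.70 to 0.032 and ZFAS1 from −3.01 to 5.42. SNORD1B in the TRiC pulldown lost its call with all 8 libraries in one fit (1.20) and ranged from 0.79 to 1.74 without one library. SNORD12C ranged from −0.23 to 1.19 there. In the PFD pulldown SNORD12C was called lower by DESeq2 (−3.22) and ranged from −5.26 to −2.16, SNORD1B from −4.13 to −0.88 and SNORD99 from −1.78 to 1.13.

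Counts of the further lists in the TRiC pulldown were 0 in every list and direction with all 8 libraries in one fit, which called 16 higher and 15 lower of 18855 genes. Other noncoding hosts called higher numbered 0 with DESeq2, under cyclic loess and without opposite-strand overlap, 2 with at least 10 counts required and 0 to 2 without one library. Protein-coding hosts called lower numbered 8 with library totals and under cyclic loess, 6 without opposite-strand overlap and 7 to 18 without one library. Those called higher numbered 2 under cyclic loess and with the replicate block, 0 without opposite-strand overlap and 1 to 2 without one library. Without opposite-strand overlap 0 spliced noncoding RNAs and 1 nuclear RNA were higher and 3 snoRNP proteins lower. Without one library these ranged from 1 to 4 for spliced noncoding RNAs and 3 to 9 for snoRNP proteins, and decay factors called lower from 0 to 2.

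Per kilobase of the canonical transcript the TRiC inputs gave 46.9 CPM for GAS5, 22.0 for SNHG1, 8.77 for SNHG29, 1.32 for SNHG5, 0.468 for SNHG16, 0.457 for SNHG6, 0.147 for ZFAS1 and 0.0915 for SNHG12, so GAS5 and SNHG1 then no longer overlapped. By this length GAS5 exceeded 91.3% and SNHG1 82.3% of the protein-coding genes with a count. SNHG29 exceeded 66.0% of them, against 30.8% by merged exons. SNHG6, SNHG8 and SNHG15 stood slightly lower than by merged exons. Input RNA and pulldowns came from ribosome pellets, but the labels do not say that a number marks the same pellet, so the pairing is not settled. Deviations of libraries numbered 1 correlated at 0.197 in the TRiC and −0.0203 in the PFD line. The replicate block called SNHG5 higher in the TRiC pulldown (1.04) and moved the calls over all genes from 1550 higher and 1894 lower to 2037 and 2652 for TRiC, and from 7 and 27 to 44 and 90 for PFD. The calls in the PFD comparison were 256 higher and 295 lower with DESeq2. SNHG8, SNHG12, SNHG15 and SNHG16 had 0 to 36 counts per library, which limits the precision of their values.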
